A study of Mus musculus with 6 samples.

Results

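The 10 genes Dusp4, Dusp5, Dusp6, Spry1, Spry2, Spry4, Spred1, Spred2, Etv4 and Etv5 are induced by ERK signalling, and most of them encode proteins that restrain it. They were chosen by name, and all 10 were found among the 30349 genes listed. Their RNA was measured in primary mouse epidermal keratinocytes in 3 cultures labelled p63 alphaKO (replicates 9, 10 and 11) and in 3 labelled wild type (replicates 13, 14 and 15). The skin came from mice at postnatal day 2, where epidermis was lifted off the dermis and dissociated, and cells of both groups grew for 5 to 6 days to confluence in medium with 0.05 mM calcium, 4% chelated serum and 2.5 ng/mL EGF, the growth factor that activates the EGF receptor. The sources used here do not give the strain, the exon that the p63 alphaKO genotype lacks, or whether the libraries of a group came from separate animals. If they did not, the p-values measure spread that may be technical. The transcription factor p63 builds stratified epithelia such as epidermis, and its alpha isoforms are those with the longest C terminus.

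In the ERK pathway, a growth factor receptor activates Ras, which starts a chain of kinases that runs from Raf through MEK to ERK. Active ERK switches on genes whose products act back on the chain. Dusp phosphatases remove the activating phosphates from ERK, Sprouty proteins act between the receptor and Raf, and Spred proteins bring the Ras inhibitor neurofibromin to the membrane. Etv4 and Etv5 are ETS transcription factors that lie downstream of FGF receptors and ERK in many epithelia. In keratinocytes the EGF receptor and ERK favour division over differentiation.

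The starts of 7 of the 10 genes were matched in RefSeq (GRCm38.p6), in 8 windows, since Etv5 has 2. Each window spans 250 bases before and 50 after a start. The stretches below lie before the start and are shown because they hold letters known from ERK-responsive transcription. The stretch of Dusp5 stops where the longer GENCODE transcript begins. Capitals in Dusp5 mark 2 adjoining CArG boxes, the motif that serum response factor binds. Capitals in Dusp6 and Spry2 mark the octamer bound by capicua, a repressor that ERK inactivates, read on the opposite strand.

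Dusp5, chr19:53528895-53529108, plus strand: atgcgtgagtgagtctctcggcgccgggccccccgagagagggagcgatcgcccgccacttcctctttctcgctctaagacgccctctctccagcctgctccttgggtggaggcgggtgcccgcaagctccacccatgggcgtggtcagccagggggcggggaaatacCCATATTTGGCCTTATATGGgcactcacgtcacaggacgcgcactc
Dusp6, chr10:99262981-99263230, plus strand: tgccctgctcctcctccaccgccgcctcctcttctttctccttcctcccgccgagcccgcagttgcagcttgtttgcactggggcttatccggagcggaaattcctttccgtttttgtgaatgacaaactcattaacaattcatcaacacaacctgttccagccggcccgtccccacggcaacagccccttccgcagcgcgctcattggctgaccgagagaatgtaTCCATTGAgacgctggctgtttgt
Spry2, chr14:105896820-105897069, minus strand: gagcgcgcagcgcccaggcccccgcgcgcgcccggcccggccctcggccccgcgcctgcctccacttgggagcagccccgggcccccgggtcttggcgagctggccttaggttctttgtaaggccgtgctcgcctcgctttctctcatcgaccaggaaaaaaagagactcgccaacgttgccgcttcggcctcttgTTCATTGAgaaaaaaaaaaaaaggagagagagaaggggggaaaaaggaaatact

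A CArG box on either strand was found in 1 of the 8 windows, that of Dusp5, and in 1.63% of all 32851 windows. The capicua octamer was searched on both strands as TGAATGAA, TGAATGGA, TCAATGAA or TCAATGGA, and was found in 2 of the 8 windows and in 3.84% of all windows. The window of Dusp6 holds a second octamer just after the start. The ETS octamer CCGGAAGT (3.89% of all windows) and the cyclic AMP response element TGACGTCA (1.79%) were found in 0 of the 8. These matches describe letters only.

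None of the feedback genes passed the test between p63 alphaKO and wild type keratinocytes. The libraries held 2188705, 2999246 and 1699716 reads in p63 alphaKO and 3180984, 3215333 and 3146374 reads in wild type. The unit of level is CPM, the reads of a gene per 1000000 reads in its library. Reads were taken near the 3' ends of transcripts. Trp63, the targeted gene, was at 49.78, 59.32 and 57.01 CPM in p63 alphaKO, against 38.02, 53.16 and 48.92 CPM in wild type, which checks no genotype, since no source used here names the removed part of the gene. The summed level of the 10 genes was 78.1, 130.6 and 92.3 CPM in p63 alphaKO replicates 9, 10 and 11, against 107.8, 122.8 and 83.8 CPM in wild type replicates 13, 14 and 15, so the groups overlapped. Averaged over all libraries, 9 genes reached the 1 CPM needed for testing and Spry4 did not. Of these 9, 0 passed an adjusted p of 0.05 in limma, where 0.0427% of the 11716 genes tested did. At an unadjusted p under 0.05 the count was also 0, against 6.36% of genes tested, and edgeR and DESeq2 called 0 as well. The groups were separated, with no overlap of their libraries, for 0 of the 9, against 11.5% of genes tested. The 9 were lower in 6 cases and higher in 3, with a median log2 fold change of -0.18, beside 49.3% lower and a median of 0.006 over all genes tested. Log2 fold changes are p63 alphaKO minus wild type on log2(CPM + 1).

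**Figure D1:**
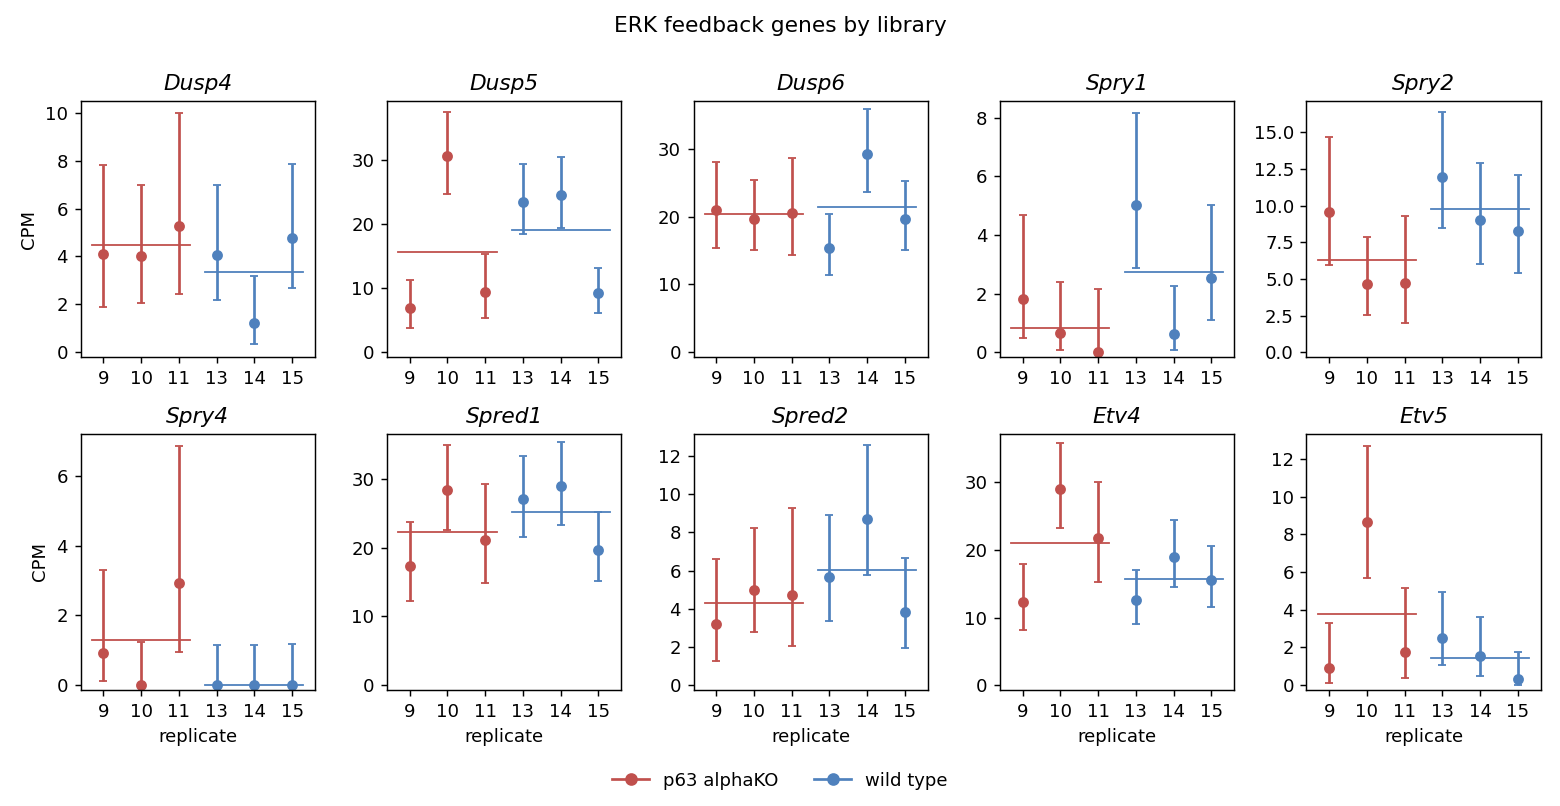
Level of each of the 10 genes in CPM (vertical axes, linear, each with its own range) in every library, by replicate number. Points are libraries with exact 95% Poisson intervals on their reads, which cover counting error only, and horizontal lines are group means; the groups overlap for all 10 genes, and Dusp5, Etv4 and Etv5 differ within p63 alphaKO by more than these intervals.

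Dusp5, which encodes a nuclear phosphatase specific for ERK, varied more within each group than between them. Dusp5 (chromosome 19, 53529109 to 53542431, plus strand in GRCm38) was at 6.85, 30.66 and 9.40 CPM in p63 alphaKO replicates 9, 10 and 11, against 23.57, 24.56 and 9.21 CPM in wild type replicates 13, 14 and 15. Replicate 10 of p63 alphaKO and replicates 13 and 14 of wild type formed a high set, and the other 3 libraries a low set. In p63 alphaKO replicate 10 it rested on 92 reads (exact 95% Poisson interval 24.7 to 37.6 CPM), and in replicate 9 on 15 reads (3.83 to 11.3 CPM). In wild type replicates 14 and 15 the intervals were 19.4 to 30.6 CPM and 6.17 to 13.2 CPM. They do not overlap within either group, so the spread within groups was larger than counting error, which is all that these intervals cover. Dusp5 stood at a log2 fold change of -0.44 (limma SE 0.48, n = 3 per group, adjusted p = 0.93), with a 95% interval from 0.366-fold to 1.49-fold. It was -1.04 without p63 alphaKO replicate 10 and -0.03 without replicate 9, with adjusted p from 0.637 to 1.0 over all alternatives. GENCODE places a gene on the opposite strand over Dusp5, as it does over Spry1 and Spry4, and whether counting used strand is not given in the sources used here, so reads of both strands cannot be told apart for these 3.

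Dusp6, which encodes the cytoplasmic phosphatase of ERK and is a common readout of ERK activity, stood at nearly 1 level in the p63 alphaKO libraries. Dusp6 (chromosome 10, 99263231 to 99267489, plus strand) was at 21.01, 19.66 and 20.57 CPM in p63 alphaKO, against 15.40, 29.22 and 19.69 CPM in wild type. All 3 p63 alphaKO values lay between the wild type extremes, whose Poisson intervals (11.4 to 20.4 CPM in replicate 13 and 23.6 to 35.8 CPM in replicate 14) do not overlap. For Dusp6 the log2 fold change was -0.02 (SE 0.32, n = 3 per group, limma adjusted p = 0.997). Its 95% interval, 0.618-fold to 1.57-fold, leaves out a doubling and a halving on this scale. Dusp4, whose nuclear phosphatase acts on ERK and JNK (chromosome 8, 34807297 to 34819894, plus strand), was at 4.11, 4.00 and 5.29 CPM in p63 alphaKO, against 4.08, 1.24 and 4.76 CPM in wild type. Wild type replicate 14, with 4 reads, was the low library, and the others lay together. The log2 fold change of Dusp4 was 0.43 (SE 0.50, limma adjusted p = 0.936), and 0.01 without that library.

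Sprouty genes rested on few reads, from 0 to 38 per library. Spry2 (chromosome 14, 105891947 to 105896819, minus strand), the Sprouty gene with enough reads to compare library by library, was at 9.59, 4.67 and 4.70 CPM in p63 alphaKO, against 11.94, 9.01 and 8.26 CPM in wild type. Replicates 10 and 11 of p63 alphaKO lay below all wild type libraries, and replicate 9 lay among them. Spry2 stood at a log2 fold change of -0.60 (limma SE 0.41, n = 3 per group, adjusted p = 0.881), with a 95% interval from 0.362-fold to 1.20-fold. It was below 0 under all 17 alternatives, which refit the same libraries, and every other tested member except Dusp6 kept its direction too. Spry1 (chromosome 3, 37639947 to 37644598, plus strand) was at 1.83, 0.67 and 0.00 CPM in p63 alphaKO, against 5.03, 0.62 and 2.54 CPM in wild type. The p63 alphaKO libraries held 6 of its reads together and the wild type libraries 26, of which 16 came from replicate 13. The groups overlapped, and the log2 fold change of Spry1 was -0.96 (SE 0.66, limma adjusted p = 0.883; -0.51 without wild type replicate 13). edgeR gave -1.64 and DESeq2 -1.69 for Spry1, and neither called it.

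Spry4, a Sprouty gene used elsewhere as a marker of FGF and ERK signalling, had reads in p63 alphaKO alone, and few. Spry4 was at 0.91, 0.00 and 2.94 CPM in p63 alphaKO, or 2, 0 and 5 reads, and was listed at 0 CPM in all 3 wild type libraries. Set against a floor of 3 reads over the wild type group, the pooled p63 alphaKO level stood 3.23-fold higher. That ratio takes the 7 p63 alphaKO reads without their counting error, so it is not a lower bound. Without p63 alphaKO replicate 11, which held 5 of the 7 reads, both groups lie under that floor and no fold is given. Replicate 10 was listed at 0 like the wild type libraries, so the groups touch, and the exact 95% Poisson intervals of these 4 libraries reach 1.15 to 1.23 CPM. With no filter on low values Spry4 did not pass (limma unadjusted p = 0.0418, adjusted p = 0.857).

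Spred genes did not differ beyond the spread between libraries. Spred1 (chromosome 2, 117121374 to 117182279, plus strand), the gene mutated in Legius syndrome in humans, was at 17.35, 28.33 and 21.16 CPM in p63 alphaKO, against 27.02, 28.91 and 19.69 CPM in wild type. Its high libraries were those in which Dusp5 was high. The log2 fold change was -0.18 (SE 0.31, n = 3 per group, limma adjusted p = 0.979), with a 95% interval from 0.561-fold to 1.39-fold. Spred2 (chromosome 11, 19924375 to 20024026, plus strand) was at 3.20, 5.00 and 4.70 CPM in p63 alphaKO, against 5.66, 8.70 and 3.81 CPM in wild type. The groups overlapped through wild type replicate 15, and the log2 fold change of Spred2 was -0.37 (SE 0.45, limma adjusted p = 0.941).

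Both Etv genes had their highest value in p63 alphaKO replicate 10. Etv4 (chromosome 11, 101769742 to 101785371, minus strand) was at 12.33, 28.99 and 21.75 CPM in p63 alphaKO, against 12.57, 18.96 and 15.56 CPM in wild type. Replicates 10 and 11 of p63 alphaKO lay above all wild type libraries and replicate 9 lay below them. For Etv4 the log2 fold change was 0.34 (SE 0.36, n = 3 per group, limma adjusted p = 0.93), with a 95% interval from 0.753-fold to 2.13-fold. It was 0.08 without p63 alphaKO replicate 10.

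Etv5 (chromosome 16, 22381309 to 22439719, minus strand) rested on that library. It was at 0.91, 8.66 and 1.76 CPM in p63 alphaKO, against 2.51, 1.55 and 0.32 CPM in wild type, and the highest of these levels was 27.1 times the lowest, which was 1 read. Replicate 10 held 26 of the 31 p63 alphaKO reads, with an exact 95% Poisson interval of 5.66 to 12.7 CPM that overlaps that of no other library. The log2 fold change of Etv5 was 0.70 (SE 0.66, n = 3 per group, limma adjusted p = 0.926), and 0.01 without replicate 10. edgeR gave 1.39 and DESeq2 1.40 for Etv5, fitted on the reads, and neither called it.

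**Figure D2:**
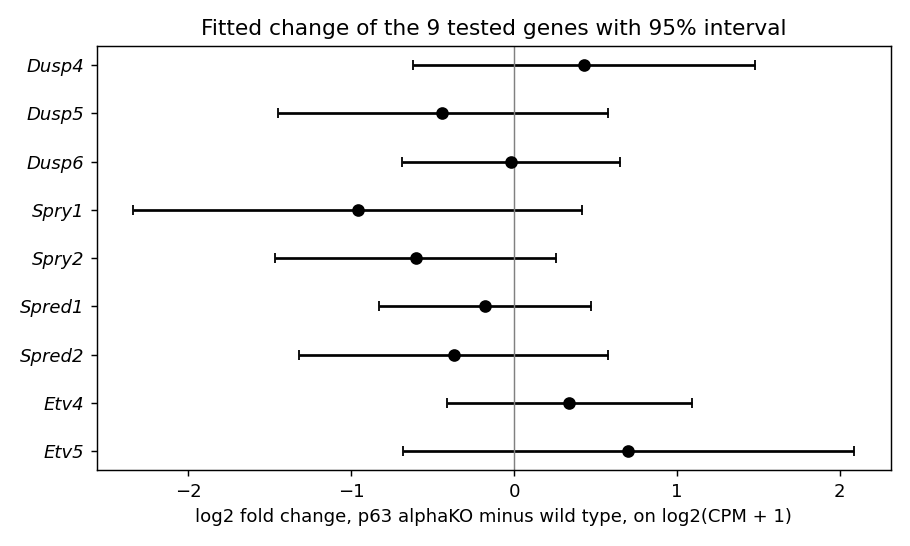
Log2 fold change (horizontal axis, p63 alphaKO minus wild type on log2(CPM + 1)) of the 9 tested genes, one per row, with 95% intervals from limma. All 9 intervals include 0, and that of Dusp6 is centred at -0.02.

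Among the 9 tested genes there was no common pattern across libraries. Of 36 pairs, 18 had a Pearson correlation of log2(CPM + 1) above 0 over the 6 libraries. Dusp5 and Spred1 were the closest pair (r = 0.98), and Spry2 and Etv4 ran most against each other (r = -0.89). Values of a pair share the same libraries and depth, and these figures describe 6 points. The 5 other genes whose profile was most like the mean standardized profile of the 9 were Fmr1 (r = 0.982), Fam122a (0.979), Leprotl1 (0.976), Samd4 (0.975) and Hsp90b1 (0.971). They were picked as the highest of 7813 genes that averaged 10 CPM or more, and 63 of these had r above 0.9. With 6 libraries, high values of r arise among unrelated genes too, and how many to expect was not computed. No link of these genes to the feedback set is read from them.

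Summed melanocyte and fibroblast markers were highest in the libraries where Dusp5 and Spred1 were highest. The 12 melanocyte markers together gave 577.2, 1067.4 and 243.9 CPM across p63 alphaKO replicates 9, 10 and 11, against 865.6, 792.1 and 324.6 CPM in wild type replicates 13, 14 and 15. The 12 fibroblast markers summed to 32.4, 80.0 and 15.9 CPM in p63 alphaKO, against 77.6, 65.9 and 31.1 CPM in wild type. Both sums were highest in the 3 libraries where Dusp5 and Spred1 were highest. So were the sums of receptor tyrosine kinases, other ERK and MAPK phosphatases and other reported ERK target genes, lists described below. The receptor list shares Kit with the melanocyte markers and Pdgfra with the fibroblast markers. Among the remaining libraries the order differed, since p63 alphaKO replicate 9 had the lowest Dusp5 and Spred1 but the highest of both marker sums. Endothelial markers summed to 4.57, 2.67 and 5.29 CPM in p63 alphaKO, against 2.20, 0.62 and 4.13 CPM in wild type, and were highest in the 3 libraries where Dusp5 was lowest. Lum, a fibroblast marker, was listed at 0 in all 6 libraries, and each melanocyte marker had a read in some library. The part of these cells in the levels of Dusp5 and Spred1 was not tested. In bulk RNA, fewer cells of a type and less RNA per cell cannot be told apart.

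**Figure D3:**
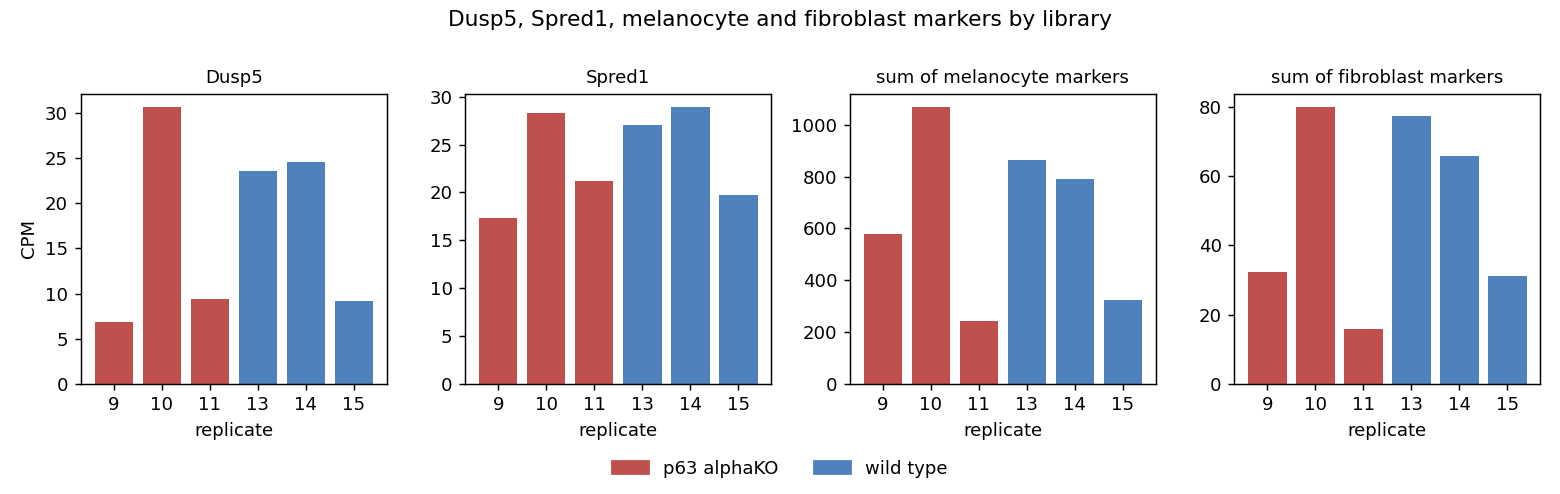
Level of Dusp5 and Spred1 and summed levels of 12 melanocyte and 12 fibroblast markers in CPM (bars from 0, each panel with its own range) in each library, by replicate number. In all 4 panels p63 alphaKO replicate 10 and wild type replicates 13 and 14 are the 3 highest bars.

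The rest of the pathway was read from 6 lists, and 0 of their 98 tested genes passed in limma (8 had an unadjusted p under 0.05). edgeR and DESeq2 also called 0 (8 and 7 at an unadjusted p under 0.05, beside 721 and 649 of all 11716 genes tested). Of all genes tested in limma, 0.0427% passed and 6.36% had an unadjusted p under 0.05. The groups did not overlap for 11.5% of them. Other ERK and MAPK phosphatases had 8 of 10 tested members lower in p63 alphaKO (median log2 fold change -0.30). Dusp8, a phosphatase of JNK and p38, was at 11.87, 16.33 and 21.16 CPM in p63 alphaKO, against 39.28, 26.42 and 21.92 CPM in wild type (-0.79, limma adjusted p = 0.758), with no overlap of the groups. Dusp7, a close relative of Dusp6, overlapped between the groups, at 89.05, 84.64 and 61.72 CPM in p63 alphaKO against 125.05, 132.43 and 85.13 CPM in wild type (-0.53, adjusted p = 0.778). Dusp3 did not overlap, at 22.9 ± 3.44 CPM in p63 alphaKO and 31.1 ± 3.47 CPM in wild type (SD, n = 3 each; -0.43, adjusted p = 0.875).

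Brakes on receptors, Ras and Raf had 9 of 16 lower (median -0.03). Nf1, which encodes the neurofibromin that Spred proteins recruit, was at 19.64, 17.66 and 17.63 CPM in p63 alphaKO, against 11.63, 13.37 and 7.31 CPM in wild type. Its groups did not overlap, yet it did not pass (log2 fold change 0.75, SE 0.34, limma adjusted p = 0.775). The others of smallest p were Socs3, a brake on cytokine receptors, at -0.63 and Rasal2, a Ras GTPase activator, at 0.43. Core genes of the cascade had 11 of 23 lower (median 0.02). Of these, Rps6ka3, a kinase that ERK activates, was at 27.0 ± 11.7 CPM in p63 alphaKO and 40.9 ± 12.2 CPM in wild type (SD, n = 3 each; log2 fold change -0.65, limma adjusted p = 0.816).

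ETS factors other than Etv4 and Etv5, listed together with Cic, which encodes capicua, had 7 of 13 lower (median -0.08). Cic itself stood at a log2 fold change of 0.12, with levels of 30.56 to 60.28 CPM over the libraries. Erf, a repressor that ERK expels from the nucleus, was at 70.2 ± 16.5 CPM in p63 alphaKO and 101.2 ± 14.2 CPM in wild type (SD, n = 3 each). Its log2 fold change was -0.54 (limma adjusted p = 0.775). Elk4 stood at -0.48 and Ets2 at -0.27. Other reported ERK target genes had 19 of 23 lower (median -0.31). Myc, a driver of growth, was at 12.79, 6.66 and 12.93 CPM in p63 alphaKO, against 31.42, 40.72 and 14.61 CPM in wild type (-1.28, SE 0.40, limma adjusted p = 0.646). Emp1, a membrane protein gene, was at -0.65 (adjusted p = 0.716), and Tnfrsf12a, the receptor of the cytokine TWEAK, at -0.74 (adjusted p = 0.778).

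Receptor tyrosine kinases had 9 of 13 lower (median -0.15). Fgfr1 was at 0.91, 3.00 and 0.59 CPM in p63 alphaKO, against 11.31, 7.77 and 2.86 CPM in wild type (log2 fold change -1.70, SE 0.56, limma adjusted p = 0.646). Its groups overlapped, and p63 alphaKO replicates 9 and 11 lay under the level of 3 reads in those libraries (1.37 and 1.763 CPM). Fgfr3 stood at -1.15 and Insr at -0.66. These medians stand beside 0.006 over all genes tested and carry no test of their own.

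**Figure D4:**
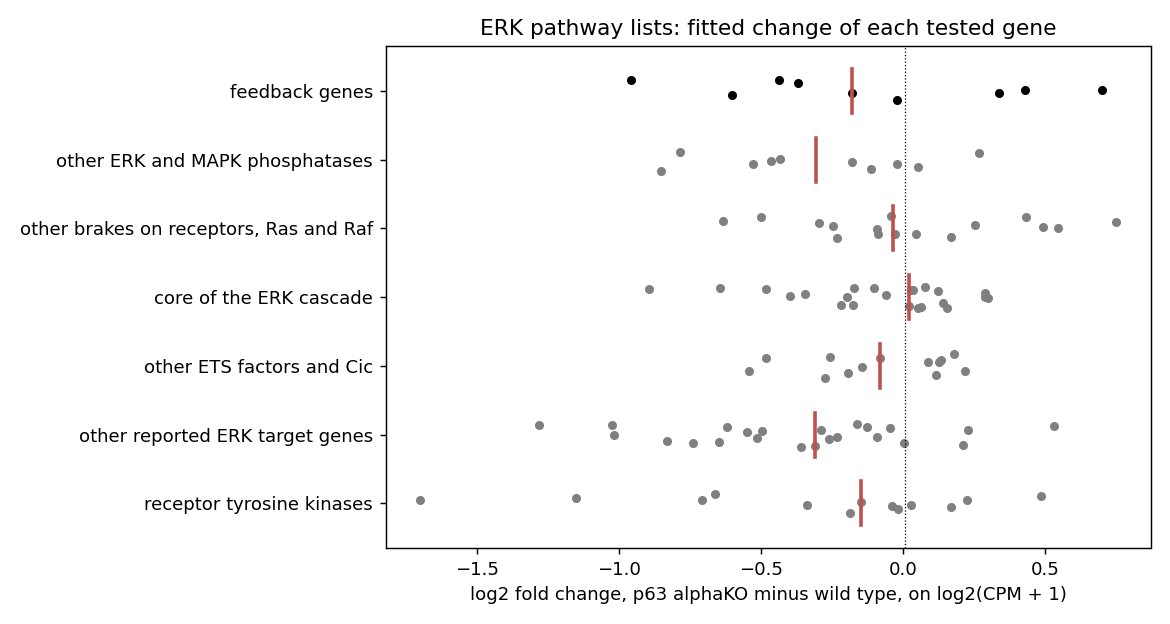
Log2 fold change (horizontal axis, p63 alphaKO minus wild type on log2(CPM + 1)) of each tested gene of the feedback set (black, top) and of 6 other ERK pathway lists (grey); red bars are list medians and the dotted line is the median of all genes tested, and vertical scatter within a row has no meaning. The feedback genes lie on both sides of 0, with a median of -0.18, while 19 of 23 other ERK target genes lie below 0.

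As to the libraries as a whole, keratinocyte markers summed to 50181, 42495 and 36391 CPM in p63 alphaKO and to 47162, 47935 and 44021 CPM in wild type, so the labelled cell type stood in all 6. The first principal component (33.2% of the variance) gave scores of 61.15 to p63 alphaKO replicate 11 and 13.55 to wild type replicate 15. Replicate 9 of p63 alphaKO scored -8.738. The lowest scores were -17.99 for p63 alphaKO replicate 10 and -21.11 and -26.86 for wild type replicates 13 and 14. These are the libraries where Dusp5 and Spred1 were highest, and a link of both genes to this component was not tested. On the second component (22.9%), p63 alphaKO libraries scored 9.244 to 30.03 and wild type libraries -38.98 to -2.966. Without p63 alphaKO replicate 11 and wild type replicate 15, 0 of the 9 feedback genes passed in limma, and 0 had an unadjusted p under 0.05. Muscle markers summed to 694.1 CPM in wild type replicate 15 and to at most 84.6 CPM in any other library, with 7 of 7 tested members lower (median -2.65) and Myh3 and Myh8 listed at 0 throughout. Immune markers rested on Epcam, which keratinocytes also express (39.7 to 52.3 CPM in sum; Cd207, H2-Aa, Cd3e and Trdc were listed at 0 throughout). Of the endothelial markers, Kdr and Emcn were listed at 0. Early response genes of cell handling had 10 of 12 lower (median -0.35), and 0 of the 12 passed. An unadjusted p under 0.05 in limma was reached by 2 of them, beside 6.36% of all genes tested. Their sums were 963.5, 805.8 and 711.8 CPM in p63 alphaKO against 1044.7, 988.5 and 784.9 CPM in wild type, and their part in the ERK target genes, with which they share Fos, Egr1 and others, was not tested. Mitosis genes had 15 of 15 lower (median -0.74) and spinous layer genes 10 of 11 (median -0.64). Krt1 was the 1 called, beside 0.0427% of all genes tested. An unadjusted p under 0.05 in limma was reached by 8 mitosis, 6 spinous layer and 6 muscle genes. The groups did not overlap for 8, 6 and 2 of them, beside 11.5% of all genes tested. Mitosis genes summed to 2083.8 CPM in wild type replicate 15 and to at most 1289.8 CPM in any other library.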

How the data were processed

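The deposited table holds CPM per gene and library with 2 decimals, made by the authors from 3' digital gene expression. The submitters' processing notes name STAR, HTSeq and mm10 without versions or roles. Divided by the CPM of 1 read, 100% of values above 0 in each library came out whole to 0.1 read, which gave back the reads. Whether molecular identifiers were used is not given in the sources used here, so intervals and floors cover counting error only.

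The 11716 genes averaging 1 CPM or more were fitted with limma 3.58.1 in R 4.3.3 on log2(CPM + 1), with a mean-variance trend, two-sided, with Benjamini-Hochberg adjustment over all of them and a threshold of 0.05. Alternatives were 2 other pseudocounts, 2 filters, 2 scalings, 2 variance models, edgeR 4.0.16 and DESeq2 1.42.0 on the reads, and leaving out libraries. The fit was tested on simulated reads, in 5 sets with 200 of 11716 genes changed in each, all averaging at least 5 CPM. It recovered 4% of 1.5-fold, 24% of 2-fold, 85.6% of 4-fold and 96.8% of 8-fold changes. Of its 557 calls, 31 were false. Dusp4, Spry1 and Etv5 average under 5 CPM, a range in which no gene was changed.

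The genes and lists were chosen with earlier results of these data known. From each pathway list the 3 genes of smallest p were named, except for genes of the core list that are not reported here. Cic and the markers listed at 0 were named after their values were seen. Coordinates are from GENCODE vM21 (GRCm38), promoters from RefSeq (GRCm38.p6).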

Additional observations from a re-analysis of the deposited data

How the results depend on the processing

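No paired analysis was possible because the groups share no replicate numbers. None of the 9 tested feedback genes passed the adjusted threshold under any alternative, with adjusted p from 0.637 to 1.0. Of 150 fitted changes of single genes under the alternatives, 148 kept their direction, and 2 of Dusp6 did not (0.00421 without p63 alphaKO replicate 10 and 0.22 without wild type replicate 14; range -0.22 to 0.22 over the fits that left out 1 library). Dusp4, Spry1 and Etv5 have no value at a minimum mean of 5 CPM, where 6 genes remained. The number of lower genes was 5 or 6 throughout, and their median log2 fold change -0.36 to -0.03.

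The count over all genes, 5, moved to 2 with a pseudocount of 0.5, 3 with a pseudocount of 5, 1 with no filter, 2 at a minimum mean of 5 CPM, 2 by edgeR, 15 by DESeq2 and 0 without the trend (limma, 827 at an unadjusted p under 0.05). Leaving out 1 library gave 2 to 13, and leaving out wild type replicate 15 with p63 alphaKO replicate 11, an alternative chosen after seeing the data, gave 48. The cause was not tested. Feedback genes held 0 to 94 reads per library, which limits the precision of their values.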
